A study of Mus with 15 samples.

Results

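The regions described here are stretches of the mouse genome that lay under an H2Aub peak in exactly 2 of 11 peak lists, those of cKO cocaine replicate 1 and cKO saline replicate 1. H2Aub (H2AK119ub) is histone H2A to whose tail a single ubiquitin has been attached. The members were chosen by measured values, namely the positions of the deposited peaks. A stretch is a run of bases under a peak in both lists on chromosomes 1 to 19, and it was kept as private if it shared no base with a peak of any of the other 9 lists. This left 20124 private stretches of 28705 covered in both lists. The remaining 8581, called shared stretches below, overlapped a peak of at least 1 other list, 2364 of them in 1 other list, 4725 in 2 to 8 and 1492 in all 9. Because this choice used the 2 lists and the 9 lists, the widths, fold enrichments and overlaps given below describe the stretches and were not tested.

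H2Aub was profiled by ChIPmentation, in which the Tn5 transposase adds sequencing adapters to chromatin held on antibody-coated beads, in thalami of mice aged 2 to 4 months. Mice were Maged1 WT (the labels give Maged1 Loxp, a floxed allele without Cre) or Maged1 cKO, in which Cre driven by the vGluT2 promoter, active in neurons that release glutamate, removes Maged1. All mice received saline for 3 days, then cocaine at 20 mg/kg intraperitoneally or saline vehicle for 5 days, and the labels give 3 to 4 pooled thalami per sample (fewer at the least, per the methods, which also describe hemizygous males). Of the 11 lists 3 were from WT mice after cocaine, 3 from WT after saline, 2 from cKO after cocaine and 3 from cKO after saline. The deletion is restricted to cells with the promoter active, and bulk thalamus also holds cells that keep the gene. Each defining list was 1 library, so nothing said of the private stretches is replicated within a group. By the rule, they are absent from the lists of the other 3 cKO libraries, 1 after cocaine and 2 after saline.

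H2Aub is written by Polycomb repressive complex 1, whose catalytic subunits are Ring1 and Rnf2, and is removed by deubiquitylases such as the Bap1-Asxl complex. It is known for broad coverage of the promoters of silent developmental genes, the Hox clusters foremost, and lower levels are found widely over the genome. Usp7, a deubiquitylase that acts with several Polycomb proteins, is the enzyme the study links to Maged1.

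The 2 defining lists stood apart from the rest of the series. They held 54201 and 79872 autosomal peaks, and the other 9 held 7235 to 25972. Peaks with q (the false discovery rate given by the peak caller) at most 1e-10 numbered 7472 and 6836, and 3 to 13 in the other 9. The other 3 cKO lists, part of these 9, had 7, 3 and 8 such peaks among 17387, 10765 and 7235 (cKO cocaine replicate 2, cKO saline replicates 2 and 3). The WT lists had 3 to 13 among 8916 to 25972. The highest fold enrichment over input was 31.2 and 52.6, and 5.98 to 12.2 in the other 9. The methods state a read minimum that every library passed, but the lists hold no read counts, so how depth differed between libraries is unknown, and the part of depth or of library quality in these values was not tested. Both lists also held most sites common to the rest: of 1964 stretches covered in all 9 other lists, 91.2% were overlapped in cKO cocaine replicate 1 and 85.9% in cKO saline replicate 1.

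Private stretches made up much of the strongest signal in both lists. They lay in 20077 peaks of the cocaine list (37.0% of its peaks) and 20038 of the saline list (25.1%). Among the peaks with q at most 1e-10 these shares were 84.7% (6330 peaks) and 77.4% (5291 peaks). Of the 1000 peaks with the lowest p in each list, 812 and 774 held a private stretch. Only 12 and 13 of these 1000 were in none of the other 10 lists. Over all peaks of the cocaine and the saline list, 38.8% and 58.0% were in none of those 10. By the rule a private stretch needs a peak in both lists, and the part of this in the shares among strong peaks was not tested. In the other 9 lists 48 to 92 of the 1000 were in no other list. In the decile of all 28705 stretches with the lowest geometric mean of the 2 fold enrichments, 54.5% were private (95% interval 52.7 to 56.4), and in the highest decile 88.1% (86.9 to 89.3). Intervals on shares are exact binomial ones (Clopper-Pearson) and cover counting error only.

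The private stretches were narrower than the shared ones. Their median width was 160 bp (95% interval 159 to 161), with 5% below 76 bp and 5% above 462 bp, and 80.8% measured 100 to 300 bp. The extremes were 1 bp and 1618 bp, and 85 stretches had at most 10 bp. Only 4.07% (819) reached 500 bp and 45 reached 1000 bp. Stretches in 1 other list had a median of 214 bp, those in 2 to 8 lists 373 bp and those in all 9 lists 1510 bp. In total the private stretches covered 3906 kb, against 5906 kb under the far fewer shared ones. The peaks from which they were cut had median widths of 205 bp (cocaine) and 226 bp (saline), and the midpoints of both peaks lay a median of 41 bp apart. All peaks of the defining lists had median widths of 206 bp (cocaine) and 199 bp (saline), so the source peaks were not narrow for these lists.

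**Figure D1:**
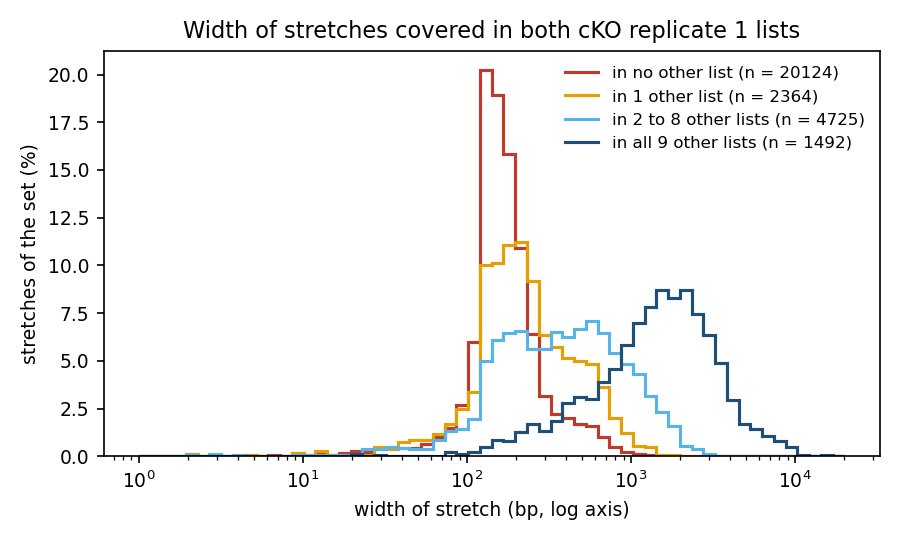
Width of stretches covered in both cKO replicate 1 lists (x axis, bp, log scale) as the percentage of each set (y axis), 1 line per number of other lists that overlap the stretch. Private stretches peak near their median of 160 bp, while stretches in all 9 other lists have a median of 1510 bp.

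Their median fold enrichments were higher than those of shared stretches. The fold enrichment is the linear ratio over input of the peak that covers the stretch, as the caller gave it. In private stretches its median was 5.51 in the cocaine list (95% interval 5.45 to 5.58) and 5.80 in the saline list (5.75 to 5.84), with ranges of 2.91 to 31.2 and 2.82 to 34.04. Shared stretches had medians of 4.22 and 4.60, with maxima of 30.8 and 52.6. Those in all 9 other lists had medians of 4.93 and 5.07, nearer the private values. Both values reached 10 in 8.97% (1805) of private and 2.88% (247) of shared stretches. With q at most 1e-10 in both lists there were 4195 private stretches (20.8%) and 523 shared ones (6.09%).

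The cocaine and the saline fold enrichments were alike in the median at these sites. A stretch needed a peak in both libraries, so sites called in only 1 of them cannot enter these ratios. The median log2 ratio of the cocaine to the saline fold enrichment was -0.0031 (95% interval -0.0099 to 0.0051), and 90% of the stretches lay between -0.76 and 0.75. The cocaine value was the higher one in 49.8% (10022). Pearson's r of the log2 fold enrichments was 0.747 over the 20124 private stretches, given as a description, since the points share both libraries and the selection by position, and neighbouring stretches can share a peak. In shared stretches r was 0.680, with a median log2 ratio of -0.072. These are 1 cocaine and 1 saline library, so no effect of cocaine at these sites can be tested.

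**Figure D2:**
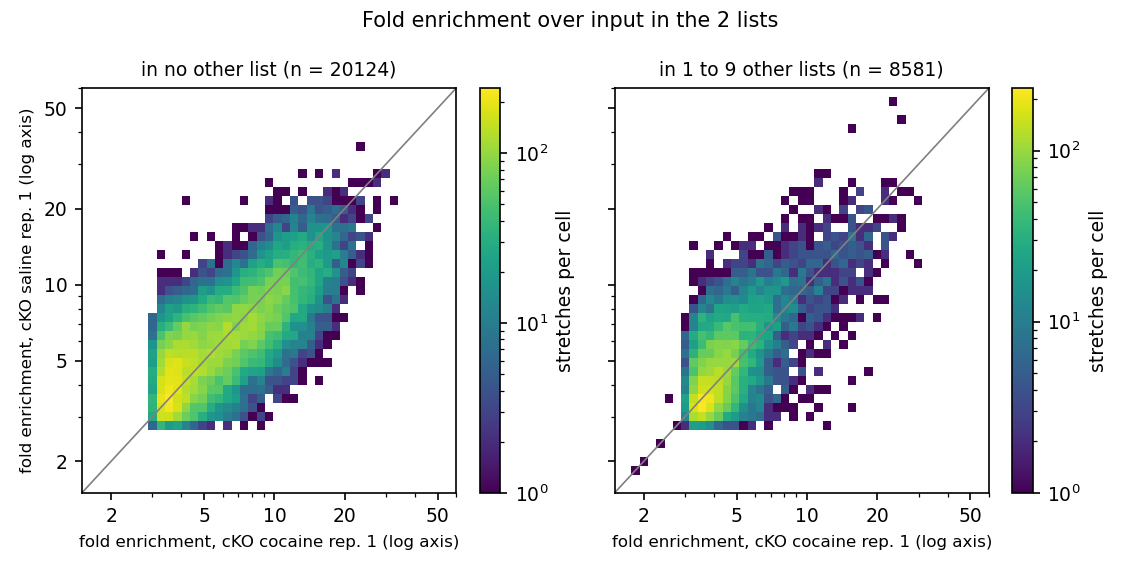
Fold enrichment over input in cKO cocaine replicate 1 (x axis) and cKO saline replicate 1 (y axis), both log scales, for private (left) and shared stretches (right), with colour for the number of stretches per cell and the diagonal for equal values. Private stretches, which needed a peak in both lists, lie around the diagonal, with 1805 at 10 or more in both lists against 247 on the right.

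Most private stretches lay more than 5 kb from a gene end. The gene table gives no strand, so a start could not be told from the other end, and distances run from the midpoint of a stretch to the nearest end of any of 47038 genes. The median distance was 8852 bp (95% interval 8609 to 9101). Of the private stretches 12.3% (2484) lay within 1 kb of an end (11.9 to 12.8), 24.1% (4856) between 1 and 5 kb and 16.8% (3382) between 5 and 10 kb. A further 35.9% (7230) were up to 50 kb away, and 10.8% (2172) farther still. Against the ends of protein-coding genes alone, 7.23% lay within 1 kb and 21.8% within 5 kb. Within 5 kb lay 36.5% (7340), against 67.1% of shared stretches and 82.6% of those in all 9 other lists. Over all peaks of the defining lists the shares were 41.0% (cocaine) and 37.5% (saline), near the private one. The median distance fell with the number of other lists, from 4390 bp (1 list) to 1848 bp (2 to 8) and 1372 bp (9). For scale, 6.31% of the genome between the first and last gene of each chromosome lies within 1 kb of a gene end and 23.6% within 5 kb, both below the private shares.

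**Figure D3:**
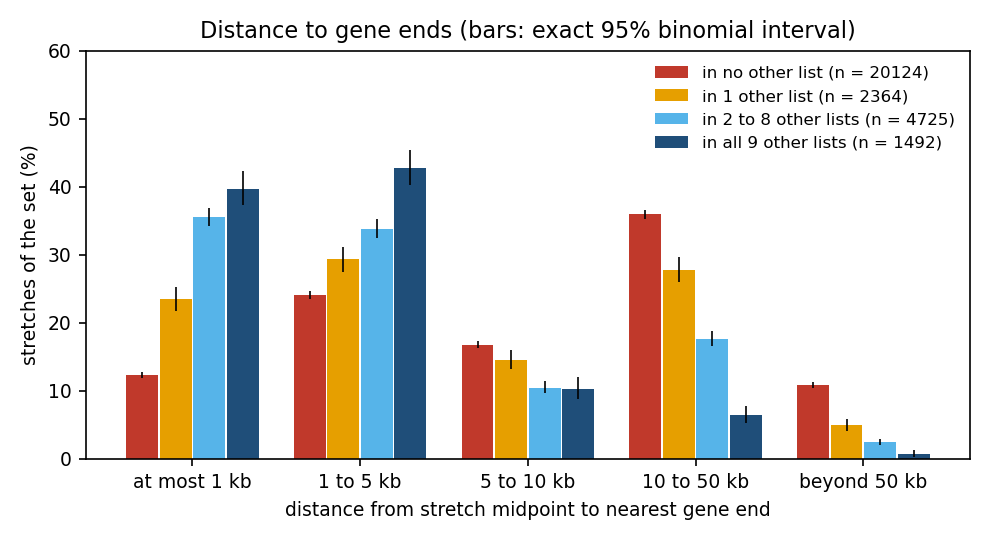
Percentage of each set (y axis) in classes of distance from the stretch midpoint to the nearest gene end (x axis), with exact 95% binomial intervals for counting error. Of private stretches 12.3% lie within 1 kb and 10.8% beyond 50 kb, against 39.7% and 0.670% of those in all 9 other lists.

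The share of private stretches near gene ends was lower at high fold enrichment. In deciles of the geometric mean fold enrichment, whose medians ran from 3.42 to 12.8, the share within 1 kb of a gene end was 16.3% in the lowest decile (95% interval 14.8 to 18.0) and 7.21% in the highest (6.11 to 8.43). Within 5 kb the shares were 42.8% and 30.8%. Stretches outside every gene made up 38.5% of the lowest and 46.2% of the highest decile. Width went the other way, with medians of 136 bp and 199.5 bp. Shared stretches had another profile, in which the share within 1 kb was 24.1% in the lowest decile, 39.7% in the ninth and 28.3% in the highest.

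**Figure D4:**
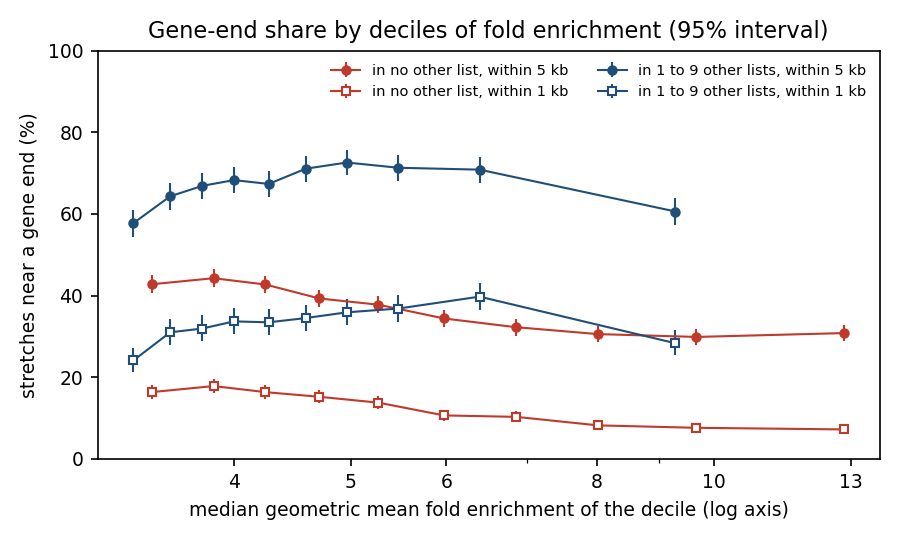
Percentage of stretches near a gene end (y axis) in deciles of the geometric mean fold enrichment, placed at the median of the decile (x axis, log scale), for private (red) and shared stretches (blue), within 5 kb (filled) and within 1 kb (open), with 95% intervals. The private share within 1 kb goes from 16.3% to 7.21%.

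By gene class, 49.4% (9939) of the private stretches had their midpoint inside a protein-coding gene, 9.38% (1888) inside another gene only and 41.2% (8297) outside all genes. The genome span gives 40.3% inside protein-coding genes and 51.3% outside. Inside a protein-coding gene and more than 5 kb from any gene end lay 31.5% (6329), close to the 30.5% of the genome span that meets this definition, and 15.9% of shared stretches. The nearest gene end belonged to a protein-coding gene in 48.9% (9831), to a lncRNA gene in 37.1% (7461), to a pseudogene in 9.95% (2003) and to a small RNA gene in 4.05% (815). For shared stretches these shares were 62.5%, 31.5%, 3.23% and 2.56%. The table itself holds 43.9% protein-coding, 26.4% lncRNA, 20.2% pseudogene and 8.37% small RNA genes.

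The threshold of the choice is an overlap of 1 base, and many members lay close to it. The median gap from a private stretch to the nearest peak of the other 9 lists was 6396 bp, with 5.04% (1015) within 100 bp, 23.7% (4766) within 1 kb and 42.3% (8507) beyond 10 kb. The 1015 just inside had median fold enrichments of 4.11 and 4.95, a median width of 177 bp and a median distance to a gene end of 4645 bp. The 2364 just outside, in 1 other list, had 4.04, 4.76, 214 bp and 4390 bp. WT cocaine replicate 2 alone supplied 721 of these 2364, the largest number among the 9 lists. It also held the most peaks of the 9, 25972, and the part of list size was not tested. By deciles of fold enrichment the median gap was 2.07 kb in the lowest, 13.5 kb in the eighth and 6.97 kb in the highest.

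The sites were spread over all autosomes. Their density ran from 5.26 per Mb on chromosome 3 to 12.3 per Mb on chromosome 11, and 2155 of 2470 windows of 1 Mb (87.2%) held at least 1, with a median of 7 in those windows. Neighbouring private stretches lay a median of 43.3 kb apart, 10.0% of neighbours at most 5 kb apart. The densest window, chr5:139000001-140000000 (mm10), held 48 private and 25 shared stretches. It contains 20 protein-coding genes, among them Pdgfa, a growth factor, Uncx, a homeobox gene, and Mafk, a small Maf transcription factor, which were named after their place was seen.

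The 12 private stretches with the highest geometric mean fold enrichment were 194 to 360 bp wide. The highest lay inside Neurl1a, a neuronal ubiquitin ligase, at chr19:47254726-47255048, 4.55 kb from its higher-coordinate end, with fold enrichments of 29.8 (cocaine) and 28.0 (saline). Hspb7, a small heat shock protein of heart and muscle, carried one at chr4:141424627-141424986, 0.504 kb inside its higher-coordinate end, with 30.1 and 27.0. Near Klf4, a pluripotency transcription factor, the stretch chr4:55517934-55518171 lay 9.09 kb outside the gene, with 26.8 and 27.2. Inside Tac1, which encodes the precursor of substance P, chr6:7557340-7557533 had 27.8 and 21.1. Another lay 11.8 kb from Foxl2, a forkhead factor of the ovary (26.9 and 19.9), and another inside Them7 (27.0 and 24.6). The other 6 had a lncRNA gene end nearest, and the one assigned to Gm52013 lay inside Rtn1, which encodes a reticulon of the endoplasmic reticulum. Only the Hspb7 stretch of these 12 was within 1 kb of a gene end, while 7 of the 12 had a peak of another list within 1 kb.

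The 5 widest private stretches measured 1502 to 1618 bp and had lower values. One of 1608 bp lay inside Dnmt3a, which encodes a de novo DNA methyltransferase, with fold enrichments of 5.77 and 4.26. Another of 1618 bp lay over the end of the lncRNA Gm51419 inside Npas3, a neuronal transcription factor gene, with 5.99 and 6.06. The remaining 3 had the pseudogene Rpsa-ps4, the ferroxidase homologue gene Hephl1 and the interferon-related gene Nmi nearest, with values of 3.66 to 5.14.

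Long genes collected the most sites. Gse1, which encodes a partner of a histone demethylase complex, and Wwox, a gene over a common fragile site, each had 31 private stretches inside or within 5 kb, then Camta1, a calmodulin-binding transcription activator, 27, Cdh13, a cadherin, 22, and Auts2, a neurodevelopmental gene whose product joins a Polycomb complex, 19. Per 100 kb Gse1 had 8.54 and the others 1.70 to 3.36. Gse1 also had 27 shared stretches. In all, 6725 protein-coding genes (32.5%) had a private stretch inside or within 5 kb, and the 412 with at least 5 had a median length of 208 kb, against 17.5 kb for all protein-coding genes.

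To see which kinds of genes had a private stretch at an end, genes of 22 lists were counted. Of 20661 autosomal protein-coding genes, 4343 had one within 5 kb of an end (21.0%) and 1502 within 1 kb (7.27%), while 3166 had a shared stretch within 5 kb (15.3%). Over all 47038 genes, 8098 had a private stretch within 5 kb (17.2%). Both kinds of stretch occurred at 1180 protein-coding genes, which is 27.2% of those with a private and 37.3% of those with a shared stretch.

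Genes known as Polycomb targets had shared stretches. All 39 Hox genes had a shared stretch within 5 kb and none had a private one, where all protein-coding genes gave 15.3% and 21.0%. Hox genes lie in clusters, so neighbours can share a stretch and the 39 are not separate observations. A private stretch may by the rule overlap no peak of the other 9 lists, and the part of the rule in the private count was not tested. Among all protein-coding genes with a shared stretch, 37.3% also had a private one. All 69 listed developmental transcription factors had a shared stretch, and 10 of them also had a private one (14.5%). Beside Six3, a homeobox gene of forebrain and eye, the stretch 0.867 kb from the gene had fold enrichments of 12.9 and 9.95, with a peak of another list 0.05 kb away. Beside Tbx5, a T-box gene of heart and forelimb, the values were 6.09 and 7.06. The lists were written with earlier results of these data known, so the shared counts are no independent evidence.

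Broadly used genes were counted in 6 lists, to be read against 21.0% (private) and 15.3% (shared) of all protein-coding genes. Of 27 core housekeeping genes 5 had a private one (18.5%, interval 6.30 to 38.1) and none a shared one. At Gpi1, a glycolytic enzyme gene, it lay 0.269 kb inside an end with fold enrichments of 3.84 and 4.80. Private stretches were found at 8 of 80 ribosomal protein genes (10.0%, 4.42 to 18.8) and 10 of 74 respiratory chain genes (13.5%, 6.68 to 23.5). The next were 3 of 38 proteasome genes (7.89%, 1.66 to 21.4), 1 of 30 splicing genes (3.33%, 0.0844 to 17.2) and 3 of 67 histone genes (4.48%, 0.933 to 12.5). The intervals of the ribosomal, splicing and histone lists lay below 21.0%, and the others held it. H2bc14, a histone H2B gene, had values of 6.92 and 9.54. Shared stretches stood at 2, 2, 7, 0 and 0 of these genes.

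Large gene families differed among themselves. Of 1104 olfactory receptor genes, silent outside the nose as a rule, 14 had a private stretch (1.27%, interval 0.695 to 2.12), and of 354 vomeronasal receptor genes 2 had one (0.565%, 0.0685 to 2.03), both below the background. No gene of either family had a shared stretch. Of the 7 olfactory receptor genes with one within 1 kb, Olfr279 had the highest geometric mean, with values of 12.1 and 11.9. Of 391 Zfp zinc finger genes 52 had one (13.3%, 10.1 to 17.1), such as Zfp623 with 9.07 and 16.0. Genes whose symbol starts with Krt, mostly keratins and keratin-associated proteins of skin and hair, had one in 26 of 112 cases (23.2%, 15.8 to 32.1), near the background, and Krt16 had values of 14.1 and 8.54. Gene density differs between these families and its part was not tested.

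Among cell type markers of the brain, private stretches stood at 9 of 16 neuron markers (56.3%, interval 29.9 to 80.2), 6 of 12 astrocyte markers (50.0%, 21.1 to 78.9) and 7 of 18 thalamic neuron genes (38.9%, 17.3 to 64.3). Endothelium had 4 of 12 (33.3%, 9.92 to 65.1), microglia 3 of 12 (25.0%, 5.49 to 57.2) and oligodendrocytes 2 of 12 (16.7%, 2.09 to 48.4). All protein-coding genes gave 21.0%, which lies inside the intervals of 4 of these 6 lists and just under that of the astrocyte list. At Syn2, a synaptic vesicle protein gene, the stretch lay 0.766 kb outside an end with 7.02 and 6.30, and the nearest peak of another list was 125 kb away. At Rora, a nuclear receptor gene of thalamic neurons, it lay 0.716 kb inside an end with 5.73 and 5.26. Tubb3, a neuronal tubulin gene, had 3.06 and 3.02, near the lower limit of the values. Slc1a2, the astrocyte glutamate transporter gene, had 3.46 and 4.11, and Mbp, a myelin protein gene, 3.56 and 4.90. The nearest peak of another list lay 0.19 kb from the Tubb3, 0.498 kb from the Slc1a2 and 0.058 kb from the Mbp stretch. For Rora it was 35.45 kb away. Shared stretches stood at 6, 5, 12, 4, 3 and 6 genes of these lists in the order given, where all protein-coding genes gave 15.3%.

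Of 22 immediate early genes, which respond rapidly to neuronal activity, 8 had a private stretch (36.4%, interval 17.2 to 59.3) and 14 a shared one (63.6%, 40.7 to 82.8), where all protein-coding genes gave 21.0% and 15.3%. The private interval holds its background. Nr4a3, a nuclear receptor gene, had fold enrichments of 9.66 and 10.1 at 0.117 kb outside an end. Fosb, an AP-1 subunit gene, had 8.92 and 7.91 at 0.537 kb inside an end, with a peak of another list 0.281 kb away. Nr4a1 had 3.79 and 6.02. Such a peak lay 0.208 kb from the Nr4a1 stretch and 1.66 kb from the Nr4a3 one.

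The enzymes of the mark were also looked up. Private stretches lay within 5 kb of 7 of 30 Polycomb genes (23.3%, interval 9.93 to 42.3), among them Rnf2 (4.05 and 4.22), Yaf2 (3.79 and 4.62) and Pcgf5 (4.40 and 3.68), with shared ones at 7. The share is near the 21.0% of all protein-coding genes. Of 10 genes for H2A deubiquitylases and their partners, Asxl1, Asxl2 and Asxl3 had a private stretch (interval 6.67 to 65.2%) and none had a shared one. At Asxl1 it lay 0.619 kb inside an end with 3.66 and 4.77. Of 13 genes for CTCF and cohesin, which shape chromatin loops, Ctcf and Pds5b had one (15.4%, 1.92 to 45.4), and at Pds5b it was 21 bp wide. The intervals of these 3 lists hold 21.0%. Usp7 had neither kind of stretch, its nearest private one being 144 kb away, and Maged1 lies on chromosome X, outside the chromosomes used.

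**Figure D5:**
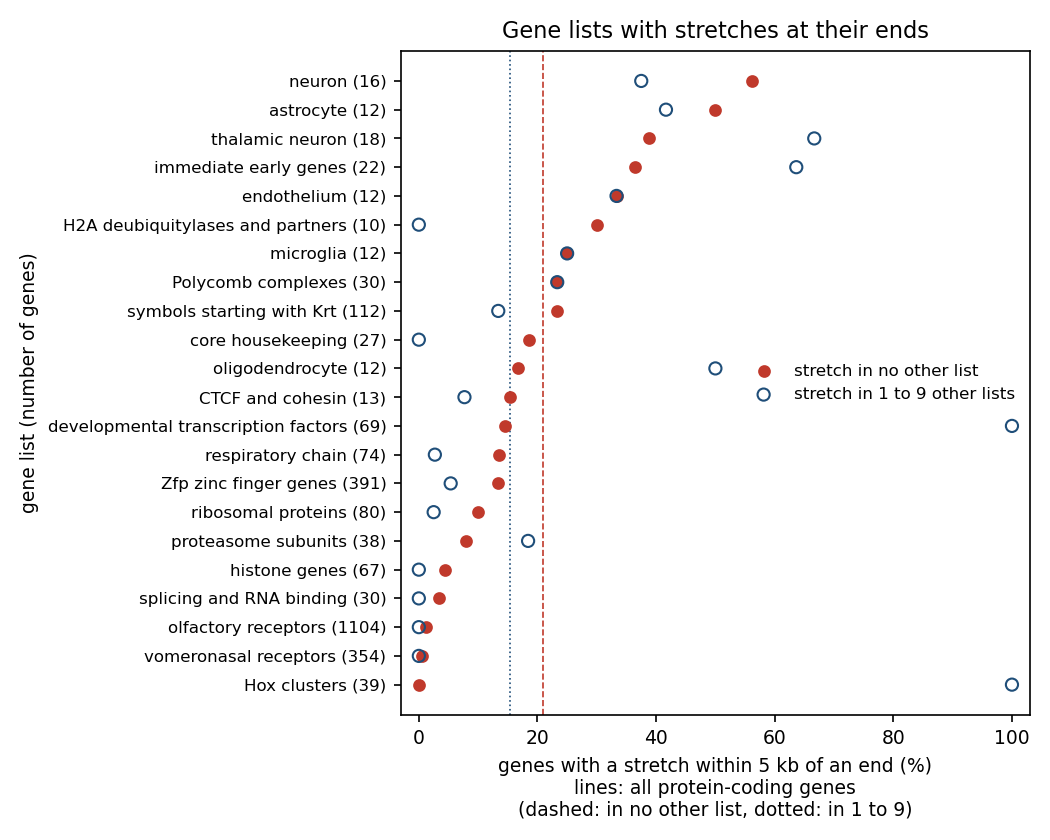
Percentage of the genes of each list (y axis, number of genes in brackets) with a private (filled) or a shared stretch (open) within 5 kb of an end (x axis), with lines at the percentages of all protein-coding genes, 21.0% and 15.3%. Hox genes and developmental transcription factors stand at the right edge for shared stretches (39 of 39 and 69 of 69) and at 0 and 14.5% for private ones. Hox genes of a cluster can share a stretch.

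The gene table gives no exons, so sites inside genes were not split into exonic and intronic ones. No genome sequence, accessibility map or factor binding data were used here, so the chromatin feature under them was not identified, and sequence content was not tested.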

How the data were processed

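H2Aub ChIPmentation of pooled mouse thalami gave 11 peak lists, 1 per library. Per the labels and methods, the authors trimmed adapters with Cutadapt, mapped read pairs to mm10 with Bowtie2 (2.3.4.1), kept alignments with mapping quality above 30 and called broad peaks with MACS2 (2.1.1.20160309.3) against total input. The deposited fold enrichment is a linear ratio, and the deposited −log10 p and −log10 q are the caller's. The score column and the 4 input libraries were not used. All deposited peaks on chromosomes 1 to 19 entered. The methods state a minimum depth met by every library. Lists hold no read counts, so the depth of each one is unknown and precision from depth could not be given.

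Runs of bases under peaks of both defining lists were intersected and dropped if 1 base overlapped another list (Python 3.11.15, pandas 2.3.3, scipy 1.17.1). The procedure was tested on simulated data and checked against bedtools 2.31.1. A stretch takes the fold enrichment of the peak covering it, so 94 stretches share a cocaine peak and 172 a saline peak with another. Genes came from a RefSeq table of GRCm38.p6, which has mm10 coordinates but no strand. Listed genes were matched by symbol or unique synonym. No test was run, since the choice used these lists and regions are not replicates. Named stretches were the 12 of highest geometric mean fold enrichment, the 5 widest, the 5 protein-coding genes with most stretches, and up to 4 genes per list with a stretch within 1 kb of an end, of which a selection is printed. Usp7 and Maged1 were looked up. Other genes were named after their values were seen. The members and gene lists were chosen with earlier results of these data known. Alternatives changed the q limit, overlap, margin, width, number of peaks, chromosomes, gene set and anchor, and left out each excluding list.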

Additional observations from a re-analysis of the deposited data

Results flagged for a closer look

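Peaks on unplaced or random contigs occurred only in the defining lists, 3 in cKO cocaine replicate 1 and 7 in cKO saline replicate 1, against 0 in each of the other 9 lists. They were singled out because they lie outside the chromosomes compared. On chromosome X, likewise outside the comparison, 181 stretches were covered in both lists and in no other, with a median width of 142 bp and median fold enrichments of 6.02 (cocaine) and 5.53 (saline).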

How the results depend on the processing

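Of 151 values recomputed under 21 settings, 107 stayed within the interval or factor set for them and 44 moved. No paired analysis was possible because the results come from no test. With q at most 0.05 in the defining lists the median width was 162 bp and the median fold enrichments 5.80 (cocaine) and 6.01 (saline). With q at most 0.01 they were 166 bp, 6.74 and 6.65, with 10.7% within 1 kb and 34.2% within 5 kb of a gene end and 42.2% outside genes. With q at most 1e-10, there were 4195 stretches, with 192 bp, 10.98 and 10.4, 7.29%, 30.4% and 45.6%, and 45.5% nearest to a protein-coding gene. The 10000 peaks of lowest p in each list gave 5821 stretches, 185 bp, 10.1 and 9.44, 7.85%, 30.6%, 44.9% and 45.7%. When only peaks with q at most 0.05 excluded, the cocaine value was 5.45. Stretches of at least 100 bp gave 167 bp, 5.85 and 6.04. With no other peak within 1000 bp the values were 157 bp, 6.06 and 6.01, 10.5% and 33.1%, with 48.1% nearest to a protein-coding gene. Protein-coding genes alone gave 7.23%, 21.8% and 50.6% outside. Measured from the nearest edge, 13.2% lay within 1 kb. Of the private stretches with their midpoint inside a gene, 84.0% lay inside a protein-coding gene, a different quantity from the nearest end. Leaving out each excluding list gave 20205 to 20845 stretches, 160 to 162 bp, 5.42 to 5.51 and 5.76 to 5.79, 12.4 to 13.0%, 36.5 to 37.3%, 40.9 to 41.3% and 48.8 to 49.2%, and only the omission of WT cocaine replicate 2 moved any of them past its interval. The cause was not tested. Fold enrichments rise by construction where the q limit is stricter.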

Other observations

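The peak numbers on chromosome X were 451 and 831 in the defining lists and 36 to 83 in the other 9. Private stretches there numbered 1.06 per Mb, against 5.26 to 12.3 per Mb on the autosomes, and 45.3% lay within 5 kb of a gene end. A further 37 stretches on chromosome X were in at least 1 other list.

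Among the private stretches, fold enrichment was highest at intermediate widths. Median fold enrichment, as the geometric mean of both lists, was 3.93 in stretches of at most 100 bp, 6.70 at 150 to 200 bp, 7.75 at 200 to 300 bp and 4.59 at 300 to 500 bp. Above 500 bp it was 4.90, and 22.4% of those 817 stretches lay within 1 kb of a gene end, against 10.6% of the stretches of 150 to 200 bp.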
